A study of Mus musculus with 2 samples.

Results

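Coding exons, the stretches of genes that are translated into protein, held 1165 accessible regions in the urinary bladder of young mice. They were chosen by position alone. Overlapping peaks of the 2 libraries were merged into 144484 regions, of which 73164 held peaks of both libraries. Of these shared regions, those on autosomes whose centre lay in coding sequence (CDS) of a protein-coding gene and more than 1 kb from every annotated transcription start site (TSS) were taken. They made up 2.58% of the 45084 autosomal shared regions beyond 1 kb of a TSS, called distal shared regions here. No signal value entered the choice beyond the authors' peak calls.

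The data are DNase-seq of whole urinary bladder from male B6CASTF1/J mice, a hybrid of the C57BL/6J and CAST/EiJ strains, at 14 days of age. There is 1 group of 2 biological replicates, and the tissue was neither treated nor sorted. Replicate 1 is described as a male and replicate 2 as 3 males, so replicate 2 may be a pool. The design holds no contrast, so the values below are descriptions of both libraries with no test between conditions, and regions of 1 library are not replicates of each other.

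DNase I cuts DNA where it is not wrapped around a nucleosome or covered by another protein, so that the density of cuts marks open chromatin. Most open chromatin in a tissue lies at promoters, introns and intergenic enhancers, but transcription factors can also bind coding sequence, which then carries a protein code and a factor's recognition sequence at the same bases. Within an open region, a short stretch that is cut less than its surroundings is called a footprint and is commonly read as the place where a protein sits. CpG islands, stretches rich in G, C and CpG dinucleotides, usually lie at promoters and tend to stay unmethylated and open in many tissues, and some lie inside exons.

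As a rough check of the label, most markers of urothelium, smooth muscle and stroma had open promoters. A shared region lay within 1 kb of a TSS for 13 of 14 urothelial, 8 of 8 smooth muscle and 8 of 8 stromal markers, against 0 of 3 hepatocyte and 1 of 4 striated muscle markers, which was the creatine kinase gene Ckm. Endothelial markers had one in 3 of 6, immune markers in 1 of 5 and erythroid markers in 1 of 3. Of all 18232 protein-coding genes with CDS beyond 1 kb of a TSS, 72.2% had one, so lists this short are a weak check. Replicate 1 had 139821 peaks and replicate 2 had 82225. The signal of a peak is the authors' own density, and in each library all of these values were whole multiples of 1 step within 0.01 steps, 0.00521 in replicate 1 and 0.00799 in replicate 2. The median coding exon region held 186 steps in replicate 1 and 103 in replicate 2, and the weakest held 33 and 27. Read depth as such is not given in the files or labels used.

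The sequences of 5 of the strongest regions show what such open coding sequence looks like. Each is the central part of a region, up to 300 bases, read 5′ to 3′ on the strand of the gene from RefSeq's GRCm38.p6, the same build as mm10 of the files. Capitals mark coding bases, and lower case marks intron. Regions that touch an untranslated exon were passed over.
Angptl6 (chr9:20878171-20878470, minus strand): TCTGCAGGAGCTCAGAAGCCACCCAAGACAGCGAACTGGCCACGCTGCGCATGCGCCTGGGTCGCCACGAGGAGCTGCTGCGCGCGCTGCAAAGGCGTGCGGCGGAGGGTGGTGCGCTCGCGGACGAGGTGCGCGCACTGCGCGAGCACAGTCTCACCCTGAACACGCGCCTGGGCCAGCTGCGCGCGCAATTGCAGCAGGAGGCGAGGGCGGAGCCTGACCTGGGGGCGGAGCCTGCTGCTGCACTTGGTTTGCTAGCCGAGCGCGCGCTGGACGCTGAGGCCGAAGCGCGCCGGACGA
Sptbn4 (chr7:27361461-27361680, minus strand): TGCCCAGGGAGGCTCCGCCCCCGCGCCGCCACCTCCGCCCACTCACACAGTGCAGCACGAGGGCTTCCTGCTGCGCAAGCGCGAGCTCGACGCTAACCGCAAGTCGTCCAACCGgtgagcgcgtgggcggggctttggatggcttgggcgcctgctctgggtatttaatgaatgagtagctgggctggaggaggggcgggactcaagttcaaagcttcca
Spi1 (chr2:91115161-91115320, plus strand): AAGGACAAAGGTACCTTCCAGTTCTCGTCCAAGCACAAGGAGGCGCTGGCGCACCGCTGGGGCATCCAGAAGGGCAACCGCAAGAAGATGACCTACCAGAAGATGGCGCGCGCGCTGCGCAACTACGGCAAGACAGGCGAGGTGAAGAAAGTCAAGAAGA
Rsad1 (chr11:94544061-94544220, minus strand): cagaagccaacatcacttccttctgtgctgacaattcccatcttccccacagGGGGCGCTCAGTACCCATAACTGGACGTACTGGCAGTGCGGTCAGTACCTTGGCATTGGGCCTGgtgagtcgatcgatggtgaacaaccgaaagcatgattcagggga
Zfp771 (chr7:127254061-127254340, plus strand): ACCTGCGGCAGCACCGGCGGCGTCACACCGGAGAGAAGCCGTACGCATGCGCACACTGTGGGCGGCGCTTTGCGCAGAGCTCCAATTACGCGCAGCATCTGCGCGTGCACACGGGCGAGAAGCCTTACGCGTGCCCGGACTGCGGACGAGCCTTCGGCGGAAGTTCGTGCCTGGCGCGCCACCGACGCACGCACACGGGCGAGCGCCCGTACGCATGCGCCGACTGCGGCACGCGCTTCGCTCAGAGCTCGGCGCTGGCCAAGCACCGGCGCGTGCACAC
The stretches of Angptl6 and Zfp771 are coding throughout and hold 38 CpG dinucleotides in 300 bases and 46 in 280 bases. The stretch of Spi1 is also coding throughout, with 12 CpGs in 160 bases. In Sptbn4 the region crosses the 3′ end of an exon and 114 of 220 bases are coding. In Rsad1 it spans a whole exon of 64 bases with intron on both sides, and 6 CpGs lie in its 160 bases.

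Angptl6, which encodes a secreted angiopoietin-like protein, ranked highest over both libraries. Its region, chromosome 9 from 20878141 to 20878500, had a signal of 15.4 in replicate 1 and 14.1 in replicate 2 and lay in the coding exon 1 of 5. The gene's own promoter region reached 0.869 and 0.839, so the exon was by far the more open of the pair in both libraries. The centre lies 1406 bp from the nearest GENCODE TSS but 259 bp from a TSS of the RefSeq annotation, so that by RefSeq it would count as a promoter.

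Sptbn4, which encodes a spectrin of the membrane skeleton of axons, came next. Its region (chromosome 7, 27361461 to 27361680) reached 15.9 and 11.3 in the coding exon 32 of 35, and it lies 32935 bp from the gene's nearest TSS. Here the promoter was of similar strength, at 13.2 and 8.27. Spi1, which encodes PU.1, a transcription factor of myeloid and B cells, followed with 11.2 and 8.66 in its last coding exon (chromosome 2, 91115161 to 91115320), against 0.604 and 0.943 at its own promoter. The TSS nearest to this exon, 2903 bp away, belongs to the neighbouring gene Mybpc3, a myosin-binding protein gene.

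Crlf2, the receptor gene for thymic stromal lymphopoietin, had 9.87 and 8.04 in the coding exon 2 of 8. Rsad1, named for its radical SAM domain, had 11.4 and 6.34 in exon 5 of 9. The zinc finger gene Zfp771 had 8.67 and 7.14 in exon 2 of 2, which is 810 bp long. These 3 genes had open promoters at 6.73 and 4.64, 8.39 and 6.60, and 8.98 and 5.83 in replicates 1 and 2, so the exons were of the same order as the promoters.

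The ranks that follow were Ccdc194 (7.76 and 6.90), Fbxl22, an F-box protein gene (6.32 and 6.80), and Scnn1a, which encodes the alpha subunit of the epithelial sodium channel (8.39 and 4.99). Then came the kinase gene Stk35 (6.08 and 6.44), Synpo2l, an actin-associated protein gene (8.29 and 4.605), and the bicarbonate transporter gene Slc4a5 (7.10 and 5.36). Ccdc194, Scnn1a, Synpo2l and Slc4a5 had no shared region at their own promoter. Stk35 lies 72 bp from a RefSeq TSS. All 12 regions of this top group had a peak of the stricter list in both libraries, against 53.9% of all 1165 regions, which their choice by signal favours. Of the 12, 11 were CpG-rich, against 34.4% of all 1165 regions, Rsad1 being the exception.

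**Figure D1:**
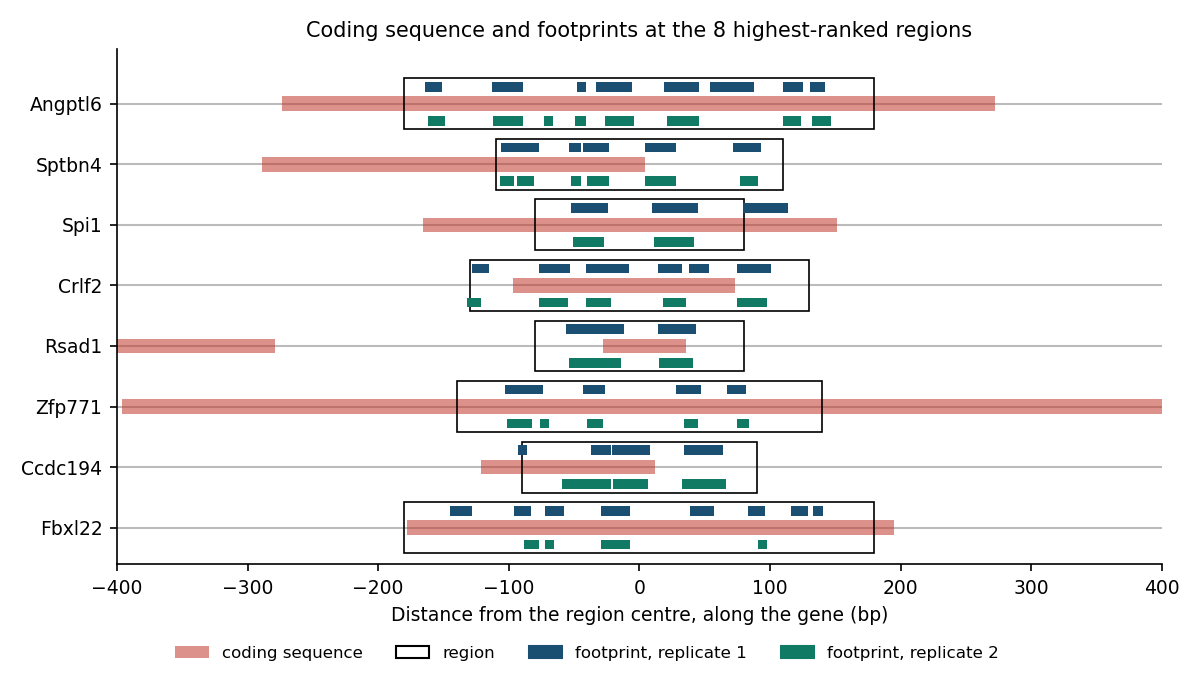
Maps of the 8 coding exon regions with the highest mean rank of signal. The x axis is the distance from the region centre in bp, read along the gene. Open boxes are the regions, red bars the CDS, and blue and green bars the footprints of replicates 1 and 2; in most rows the footprints of both libraries fall at the same places, and in Angptl6 7 footprints overlap between the libraries.

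At the other end, the weakest regions by mean rank lay in Nrxn3, a neurexin gene (0.219 and 0.216), Cntn5, a contactin gene (0.198 and 0.240), and Meox2, a homeobox gene (0.172 and 0.248). None of these 3, which were chosen for low signal, had a stricter peak in either library. The median over all 1165 regions was 0.968 in replicate 1 and 0.823 in replicate 2, that is 0.896 ± 0.103 (SD, n = 2). The middle 50% of regions ran from 0.630 to 1.77 in replicate 1 and from 0.576 to 1.29 in replicate 2. Most open coding exons were therefore weak, and the named ones form the upper tail.

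The libraries ordered the regions alike. Across the 1165 regions the signals had a Spearman correlation of 0.901, and the log2 signals a Pearson correlation of 0.922, as descriptions across regions that share their libraries. Relative to each library's median over all autosomal shared regions, coding exon regions were on balance stronger in replicate 2, with a median log2 ratio of replicate 1 to replicate 2 of -0.19 against -0.04 for intronic regions. GC content moves with this ratio. In introns it ran from 0.20 at a GC content of 45% or less to -0.32 above 70%, and in coding exons from 0.12 to -0.34. Intronic regions weighted to the GC content of the coding exon regions had -0.12.

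The regions with the largest ratio of replicate 1 to replicate 2 lay in Mei1, a meiosis gene (1.87 and 0.592, a log2 ratio of 1.26), Tulp3, a ciliary trafficking gene (3.66 and 1.23), Ppp1r21 (3.87 and 1.38) and Wdr17 (1.31 and 0.488). Those with the smallest lay in B3gnt6, a glycosyltransferase gene (0.375 and 0.672, a log2 ratio of -1.24), Focad (0.260 and 0.464), Sprr1a, a cornified envelope protein gene (0.375 and 0.664), and Ercc6l2 (0.328 and 0.576). The first 4 had stricter peaks in both libraries and the last 4 in at most 1.

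**Figure D2:**
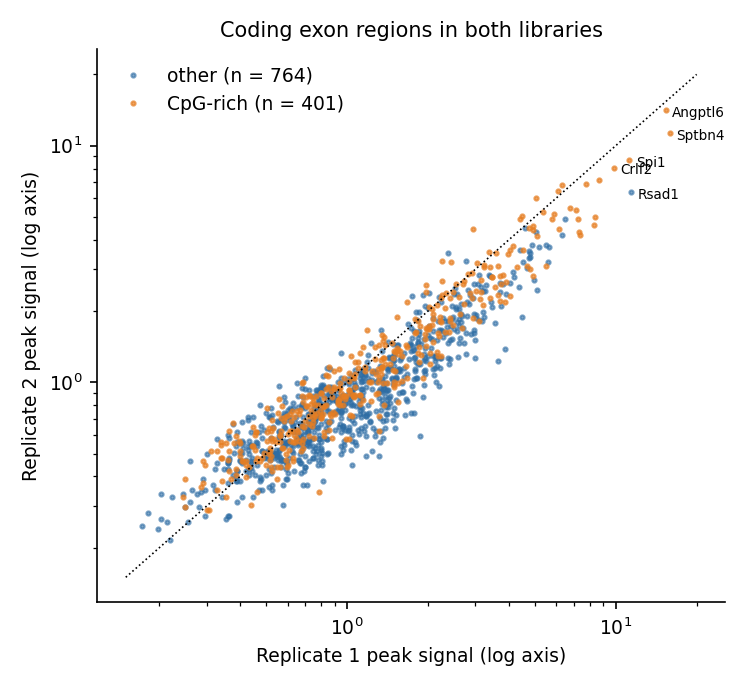
Signal of each of the 1165 coding exon regions in replicate 1 (x axis) and replicate 2 (y axis), both in the authors' density on log axes. Orange points are CpG-rich (n = 401), blue points are other regions (n = 764), the dotted line marks equal signal, and the 5 named points are the highest-ranked; Angptl6 sits at 15.4 and 14.1.

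Coding sequence was more densely covered with accessible regions than any other distal class. There were 48.6 regions per Mb of CDS beyond 1 kb of a TSS, against 32.9 per Mb of other exonic sequence (untranslated and non-coding exons), 22.9 per Mb of intron and 16.7 per Mb of intergenic sequence. CDS is a small target, 23.98 Mb or 1.07% of the autosomal sequence considered, so the regions are few in number beside 22061 intronic and 19989 intergenic ones. The order of the classes holds for regions shared by both libraries and was not tested, as there is no replicate design for it.

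In signal the coding exon regions resembled other distal regions. Their median was 0.894 times that of intronic regions in replicate 1 and 1.02 times in replicate 2, so the libraries put them on opposite sides of the intronic level. Other exonic regions had medians of 1.24 and 0.927, intronic regions 1.08 and 0.807, intergenic regions 1.09 and 0.807, and promoter regions 2.18 and 1.76. A stricter peak in both libraries was present for 628 coding exon regions (53.9%), against 56% of all distal shared regions.

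**Figure D3:**
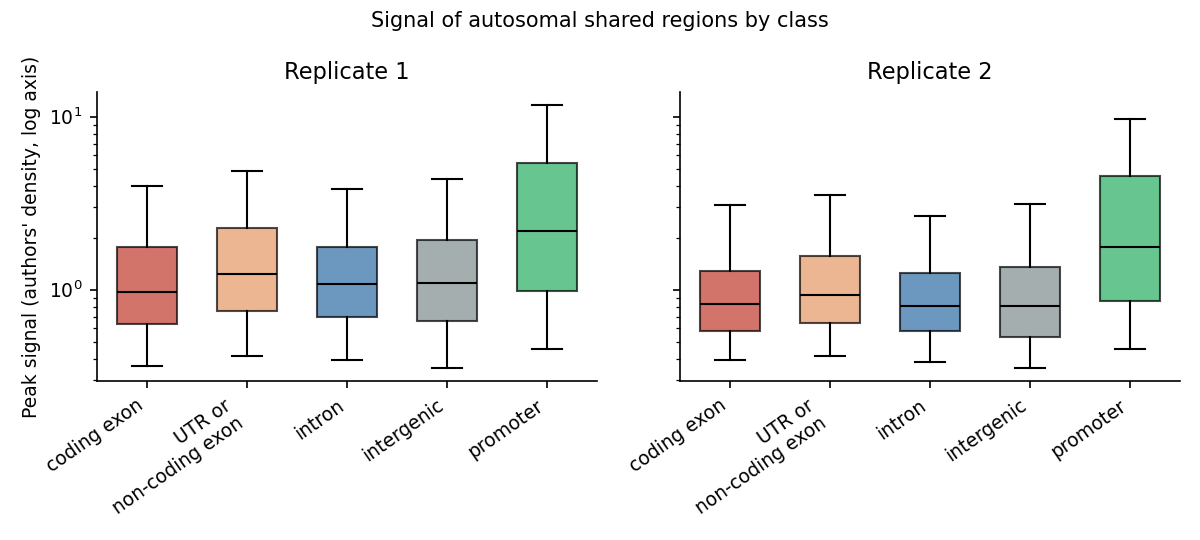
Peak signal of autosomal shared regions by class in each library, in the authors' density on a log axis. Boxes span the middle 50% of regions with the median as a line, and whiskers reach the 5th and 95th percentiles; coding exon regions, with medians of 0.968 and 0.823, lie at the level of introns and well below promoters.

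Fewer coding exon peaks of replicate 2 than intronic ones had a partner in replicate 1, the library with more peaks. Of the regions with a replicate 2 peak that met the same position rule, 82.4% were shared with replicate 1 in coding exons, against 91.2% in introns and 89.3% in intergenic sequence. Of those with a replicate 1 peak, 45.8% were shared in coding exons, against 46.2% in introns. There were 249 coding exon regions with a replicate 2 peak alone and 1380 with a replicate 1 peak alone, and their median signals were low, at 0.408 and 0.427.

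Open coding exons were richer in GC and in CpG than other coding sequence. The 200 bp at the region centre had a median GC content of 59%, against 50% in windows taken every 50 bp over the same CDS and 49% in 133788 coding exons without a peak. Intronic regions had 52.5% and promoter regions 63%. For exons without a peak the window was 200 bp at the exon midpoint. All these windows of 200 bp include flanking sequence at short exons and exon edges, and the coding share of the comparison windows was not worked out. The ratio of observed to expected CpG, a measure of how far CpGs have been kept, had a median of 0.476 in open coding exons, 0.312 in coding exons without a peak, 0.240 in intronic and 0.718 in promoter regions. In both measures the open coding exons lay between introns and promoters.

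CpG-rich windows, with a GC content of at least 55% and an observed to expected ratio of at least 0.6, were found at 401 of the 1165 regions. That is 34.4% (Wilson 95% interval 31.7 to 37.2, which covers counting error only), against a background of 4.74% over all distal shared regions. The share was 3.01% in introns, 8.40% in other exons, 58.5% at promoters and 2.61% in coding exons without a peak. In introns weighted to the same GC content it was 19.4%. Per Mb, CpG-rich CDS carried 353 regions and the remaining CDS 33.5.

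The density of regions rose with GC content across coding sequence. It was 5.76 per Mb of CDS where the GC content was 45% or less, 43.3 from 50 to 55%, 142 from 60 to 65% and 916 above 70%, although just 0.574% of the CDS lies in the last class. Their signal did not rise in step. The median of replicate 1 was 1.00 in the lowest class and 1.10 in the highest, while that of intronic regions went from 1.08 to 1.64. In replicate 2 coding exon regions went from 0.640 to 1.06 and intronic ones from 0.664 to 1.45.

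At matched GC content, open coding exons were the weaker class. Their median was below that of introns in each of the 7 GC classes in both libraries, from 0.932 times down to 0.557 times in replicate 1 and from 0.978 times down to 0.613 times in replicate 2. With introns weighted to the same GC content the ratio of medians was 0.765 and 0.831. CpG-rich coding exon regions had medians of 1.03 and 0.927, against 1.46 and 1.19 in the 663 CpG-rich intronic regions.

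**Figure D4:**
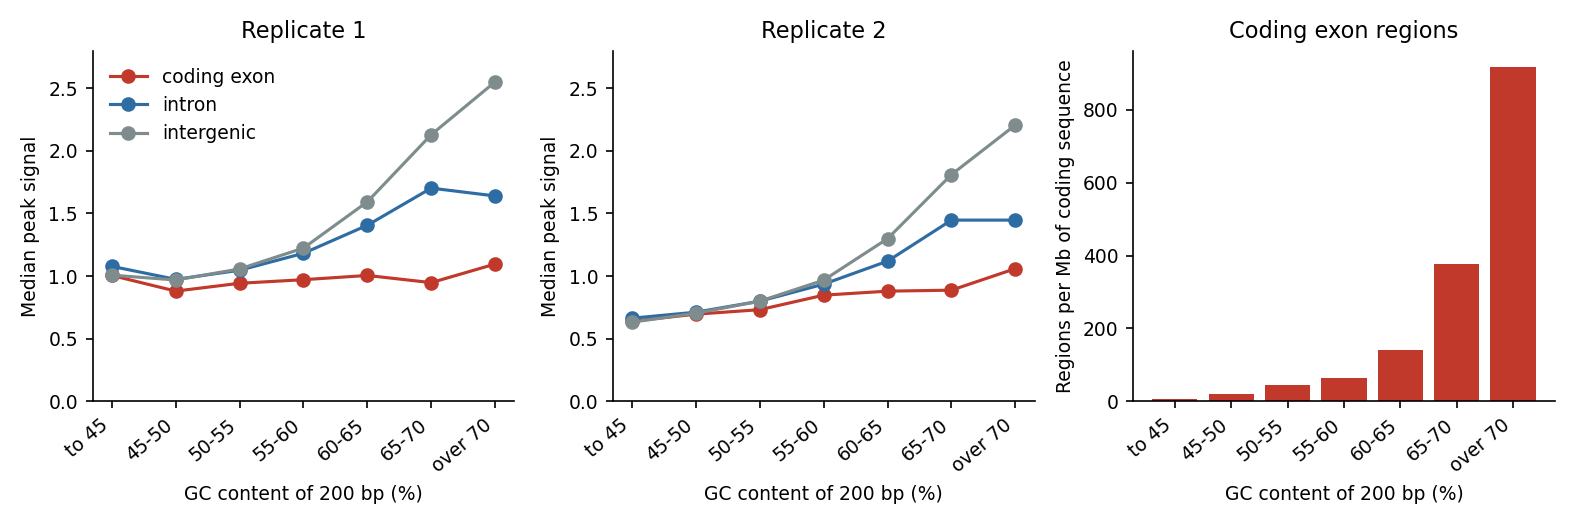
Left and centre, median peak signal (authors' density) against the GC content of the central 200 bp in replicates 1 and 2 for coding exon, intronic and intergenic regions; right, coding exon regions per Mb of CDS in the same GC classes. The red line stays nearly level in replicate 1, from 1.00 to 1.10, while the density of regions climbs from 5.76 to 916 per Mb.

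The regions were short and mostly filled by coding sequence. The median width was 220 bp (60 to 1900 bp), the median coding share of a region 82.9%, and 420 regions (36.1%) were coding throughout. The median coding exon around them was 246 bp long. The position of highest confidence lay close to the centre that the rule placed in coding sequence, at a median of 20 bp in replicate 1 and 19 bp in replicate 2. In the authors' track of false discovery rates, and as the rule largely fixes, the stretch with the lowest rate in a region lay in CDS for 1084 regions (93.0%) in replicate 1 and 1074 (92.2%) in replicate 2. It did so in both for 1029 (88.3%), and the median distance between the libraries' stretches was 20 bp.

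Exons at the ends of genes were richer in open regions than exons in the middle. In 1 transcript per gene, which covered 1116 of the regions, single coding exons held 101 regions per Mb (n = 113), first coding exons 84.5 (n = 81), last coding exons 74.4 (n = 318) and internal ones 35.6 (n = 604). Density also differed by exon length, with 30.7 per Mb in exons of up to 150 bp, 47.4 from there to 300 bp, 77.0 from there to 1000 bp and 59.0 above that. Base composition moves with both splits. CpG-rich regions made up 66.4% in single and 16.9% in internal exons, and 8.11% in the shortest and 59.2% in exons of over 300 and up to 1000 bp, and the part of composition in the density was not tested. With the coding sequence of each transcript cut into 3 equal parts from its start, 293 regions lay in the first part, 354 in the middle part and 518 in the last. These are counts and not densities. The rule leaves out coding sequence within 1 kb of a TSS, and the CDS left in each part was not worked out.

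**Figure D5:**
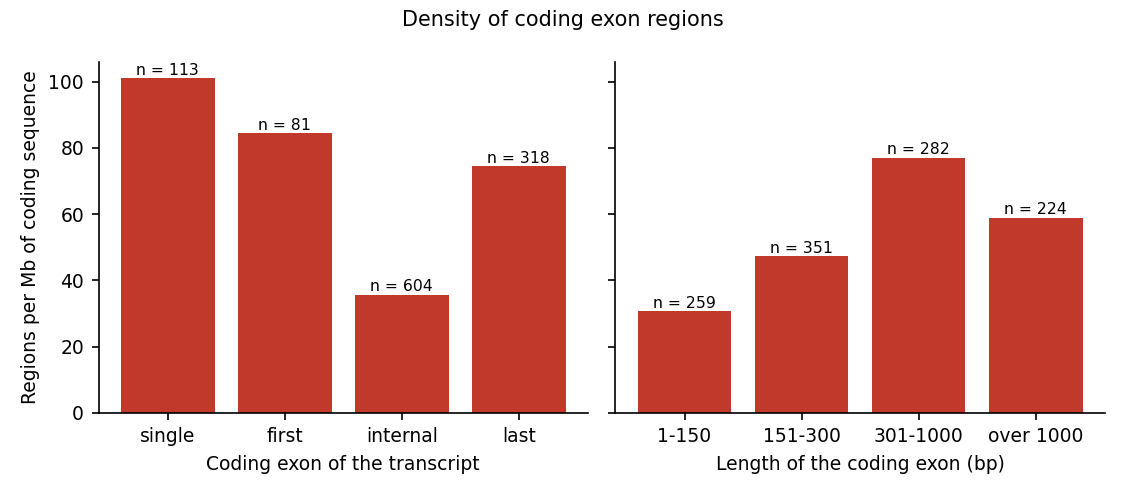
Coding exon regions per Mb of CDS beyond 1 kb of a TSS, by the place of the coding exon in 1 transcript per gene (left) and by exon length (right). Numbers above the bars are regions; internal exons have the lowest bar on the left, at 35.6 per Mb, and exons of over 300 and up to 1000 bp the highest on the right, at 77.0.

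Distance from a TSS went with CpG content. The median distance was 4092 bp, and 331 regions lay between 1 and 2 kb, of which 51.7% were CpG-rich, while 273 lay beyond 10 kb, of which 22.0% were. The nearest TSS belonged to the region's own gene in 856 cases. The limit itself is arbitrary: Etv2, an ETS factor gene, lies just inside at 1001 bp (1.08 and 0.791) and Epop, a polycomb-associated protein gene, at 1003 bp (0.635 and 0.5996). Just outside, at 995 bp, lie Npr1, a natriuretic peptide receptor gene (0.942 and 0.743), and Ythdc2, an RNA helicase gene (3.07 and 2.22). By the RefSeq annotation 72 regions (6.18%) lie within 1 kb of a TSS.

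The edge of the CDS is the other limit. In 73 regions the centre lay within 10 bp of it on the coding side, as in Gm572 (0.666 and 0.648), Gpn3 (1.94 and 1.24) and Ppm1b, a phosphatase gene (1.29 and 0.624). Bcr (0.781 and 0.584), Zfr2 (3.03 and 2.57) and Rex1bd (3.62 and 1.58) missed it by 1 bp.

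Genes with an open coding exon mostly had an open promoter as well. That was so for 851 of the 1046 genes (81.4%), against 72.2% of all 18232 protein-coding genes with CDS to consider. Of the regions, each assigned to 1 gene, 948 had a gene with an open promoter. In those pairs the promoter was the stronger element, with medians of 4.09 and 3.45 against 0.948 and 0.807 in the exon, and the median exon reached 0.266 and 0.277 of its promoter. The exon was stronger in both libraries in 116 cases (12.2%). The strengths of exon and promoter were nearly unrelated across these pairs, with Spearman correlations of 0.0557 and 0.0699. Per Mb of CDS, genes with an open promoter held 50.9 regions and the others 38.3.

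The 1165 regions fell in 1046 genes, 5.74% of those considered, and 98 genes held more than 1. The longest series lay in long coding exons. Tchh, which encodes trichohyalin of the hair follicle's inner root sheath, had 6 regions in its exon of 4659 bp. In chromosomal order (93443461 to 93447960 on chromosome 3) their signals were 0.515, 2.08, 0.568, 0.521, 1.28 and 0.672 in replicate 1 and 0.512, 1.85, 0.624, 0.440, 0.895 and 0.512 in replicate 2. The same 2 of the 6, the second and the fifth, were highest in both libraries, and Tchh had no shared region at its promoter. Plec, which encodes the cytoskeletal linker plectin, also had 6, all in its last coding exon of 6213 bp. They were uniformly weak, from 0.354 to 0.437 in replicate 1 and from 0.264 to 0.464 in replicate 2, next to a promoter at 7.24 and 4.72.

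Sptbn4 had 4 regions. Beside the strong one, those at 27402821, 27408361 and 27408881 had 1.63, 0.338 and 2.26 in replicate 1 and 1.33, 0.560 and 2.67 in replicate 2, the last pair in a coding exon of 934 bp. Irs1, the insulin receptor substrate gene with a single coding exon of 3693 bp, had 4 (0.385 to 1.09 and 0.400 to 1.22), strongest next to the start of the gene. Syne1, which encodes a giant nuclear envelope protein, had 4 spread over 145 coding exons (1.00 to 2.24 and 0.592 to 1.66). Fzd8, a Wnt receptor gene of 1 coding exon, also had 4 (0.547 to 2.33 and 0.440 to 2.38). Its strongest region, at 2.33 and 2.38, lies 715 bp from a RefSeq TSS, and the next, at 1.80 and 1.85, lies 335 bp from one. By RefSeq both would count as promoters.

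Hic1, a transcriptional repressor gene, had 3 regions in an exon of 2162 bp, and the one farthest from its TSS was the strongest, at 4.76 and 3.59 against 0.890 and 0.935 and 0.932 and 1.14. Cand2, a regulator of cullin ligases, had 3 as well, of which the one in the last exon led with 3.43 and 2.17.

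Gene lists of the bladder's compartments were checked for open coding exons. Of 33 urothelial genes with CDS to consider, 6 held one, against 5.74% of all genes. They were Elf3, an ETS factor of epithelia (4.48 and 1.89), Klf5, a Krüppel-like factor of epithelia (1.57 and 1.25), the keratin genes Krt19 (1.47 and 1.28) and Krt7 (0.718 and 0.927), Foxa1, a forkhead pioneer factor, and the uroplakin gene Upk2 (0.406 and 0.680). Foxa1 had 2 regions, at 1.24 and 0.890 in replicate 1 and 1.12 in both cases in replicate 2. The list held 237 regions per Mb of CDS, against 48.5 over all genes, which rests on 7 regions.

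Smooth muscle genes with an open coding exon were 2 of 24, against 5.74% of all genes. They were the tropomyosin gene Tpm1 (0.729 and 0.648) and Mylk, the myosin light chain kinase gene (0.594 and 0.735). Their own promoters stood at 14.5 and 12.3 and at 6.59 and 3.81. Among 25 stromal genes 4 had one, which were Col6a3, Fbn1, Fn1 and Tcf21. Fn1, the fibronectin gene, had 0.797 and 0.727 in coding exon 45 of 46. Col6a3, a collagen VI chain gene, had its strongest at 0.776 and 0.903. The values given for Tpm1, Mylk, Fn1 and Col6a3 lay below the median of coding exon regions in replicate 1 (0.968). In replicate 2, where the median was 0.823, that of Col6a3 lay above it and those of Tpm1, Mylk and Fn1 below.

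Endothelial genes gave 2 of 18, against 5.74% of all genes. They were Plvap, a gene of fenestrated endothelium, at 1.80 and 1.63 and with no shared region at its promoter, and the factor gene Sox17 at 0.297 and 0.448. In the immune list Spi1 was the sole gene of 20. Lists drawn from liver and brain gave like counts, with 2 of 19 hepatocyte genes and 1 of 18 brain genes. The hepatocyte genes were Apoa1, an apolipoprotein gene (3.47 and 2.798), and Alb, the albumin gene (0.213 and 0.256), neither with a shared region at the promoter. The brain gene was Gfap, a glial intermediate filament gene (3.57 and 2.53), which did have an open promoter, at 3.94 and 2.38. With counts this small, the share of genes cannot be told apart between these lists and the muscle and stromal ones.

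Genes of large structural proteins have long coding sequences. Cytoskeletal linker and filamin genes held an open coding exon in 12 of 29 cases, against 5.74% of all genes, with 23 regions or 105 per Mb. Their median gene had 6.39 kb of CDS to consider against 0.938 kb over all genes. The strongest were in Dst (2.97 and 1.62) and Utrn (2.36 and 1.72), cytoskeletal linker genes with a CTCF match in the region, and in the non-muscle myosin gene Myh14 (2.21 and 1.26). Collagen and laminin genes had one in 8 of 45 cases (53.8 per Mb), among them the laminin gene Lamb1 (0.854 and 0.903). Notch, EGF-repeat and lipoprotein receptor genes had one in 7 of 30 (56.6 per Mb), led by Notch3, the Notch receptor of vascular smooth muscle (3.36 and 2.83), and the endocytic receptor gene Lrp1 (3.73 and 2.10). Per Mb these lists lay near the 48.5 of all genes, except the linker genes above it.

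Regulatory genes varied. Immediate-early genes had an open coding exon in 4 of 22 cases, against 5.74% of all genes, at 224 regions per Mb, which rests on 4 regions. They were Klf4 (3.16 and 2.40), Maff (2.26 and 2.33), Klf10 (2.06 and 1.39) and Zfp36, an mRNA decay factor gene (0.698 and 0.935). Nuclear receptor genes had one in 3 of 30, with Pparg, the fatty acid sensor active in urothelium (4.87 and 3.80), Rarg, a retinoic acid receptor gene (2.37 and 1.82), and Pgr, the progesterone receptor gene (0.547 and 0.392). In Pparg the exon was stronger than the promoter, at 1.58 and 2.28, and in Rarg weaker, at 10.1 and 8.95.

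Chromatin regulator genes had one in 4 of 46, at 18.4 per Mb, with Kmt2a, a histone methyltransferase gene, at 2.55 and 2.04, Kmt2c at 0.948 and 0.496 and the remodeller gene Chd7 at 0.724 and 0.552. Of 31 Hox genes, Hoxb2 alone had one, with 2 regions (0.979 and 0.847, and 0.687 and 1.01), both within 1 kb of a RefSeq TSS. These 2 regions come to 181 per Mb, since the median Hox gene has 0.296 kb of CDS to consider. Housekeeping genes had one in 0 of 14, a count too small to set against the 5.74% of all genes. Genes with a Zfp symbol, a list chosen after values were seen and made mostly of zinc finger factors, had one in 14 of 377 (23.6 per Mb).

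Footprints were called in most open coding exons. Both libraries had at least 1 in 940 regions (80.7%, Wilson 95% interval 78.3 to 82.9), against 83.9% of all distal shared regions. Replicate 1 had 3114 footprints in these regions and replicate 2 had 2476, or 1.00 and 0.798 per 100 bp, against 1.21 and 0.901 per 100 bp in introns. They lay on coding bases about as often as the bases of the regions did. Wholly coding were 79.6% of footprints in replicate 1 and 83.4% in replicate 2, while 80.1% of the regions' bases are coding. In 738 regions (63.3%) a footprint of one library overlapped one of the other. In 674 regions the replicate 1 footprint of such a pair lay wholly in CDS. The share of other distal regions with an overlap was not worked out, nor was the overlap that random placement of footprints would give.

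Some regions carried long series of footprints. Smad6, an inhibitory Smad gene of the BMP pathway, had 13 and 14, of which 3 overlapped between libraries, in a region of 1308 bp at modest signal (0.849 and 1.06). That region reaches beyond its coding exon of 820 bp, and 62.7% of it is coding. Gdf15, a stress-induced cytokine gene, had 9 and 9 in 460 bp, of which 7 overlapped, at 2.94 and 4.44 against 0.713 and 0.727 at its promoter. Exoc3l2 had 8 and 9 in 520 bp, of which 5 overlapped, and Zfp36l2, an mRNA decay factor gene, had 7 and 9 in 1005 bp, of which 2 overlapped. The second region of Tchh had 10 and 8, of which 4 overlapped.

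Recognition sequences of transcription factors were sought as exact consensus matches on both strands in the central 200 bp. A match is a description of the letters, and it is compared with the share of other windows of the same length that hold it. The insulator protein CTCF binds a long sequence that rarely occurs by composition alone. A match to its consensus lay in 70 regions (6.01%), against 8.87% of all distal shared regions, 8.02% of intronic regions and 0.0740% of coding exons without a peak. Introns weighted to the same GC content held it in 5.25%, so the order of coding exons and introns turns with that weighting. Regions with a match were the stronger ones, with medians of 2.00 and 1.28 against 0.942 and 0.807 without. The match is wholly coding in 61 of the 70.

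The following stretches of 51 bases hold the CTCF match in capitals, on the strand of the match, at 5 of the strongest such regions away from untranslated exons. Each match is wholly coding and lies in a footprint of both libraries.
Synpo2l (chr14:20661143-20661193, minus strand): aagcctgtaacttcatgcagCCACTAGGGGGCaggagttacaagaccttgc
Rasip1 (chr7:45628940-45628990, minus strand): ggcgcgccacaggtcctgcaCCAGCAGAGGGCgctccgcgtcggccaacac
Pgls (chr8:71596098-71596148, minus strand): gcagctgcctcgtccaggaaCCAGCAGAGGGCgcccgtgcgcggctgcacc
Chpf (chr1:75477558-75477608, plus strand): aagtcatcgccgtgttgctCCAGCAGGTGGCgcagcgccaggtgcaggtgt
Soga1 (chr2:157030977-157031027, minus strand): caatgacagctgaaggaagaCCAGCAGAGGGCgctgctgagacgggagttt
Beside Synpo2l these are Rasip1, a gene of endothelial junctions (7.34 and 4.19), Pgls, a pentose phosphate pathway enzyme gene (4.76 and 4.48), Chpf, a chondroitin polymerizing factor gene (4.90 and 2.82), and Soga1 (5.09 and 2.45). In all 5 the unscaled signal was higher in replicate 1, as was the median over all coding exon regions. After scaling to each library's median, Pgls was relatively stronger in replicate 2, with a log2 ratio of -0.312. The others were stronger in replicate 1, with log2 ratios from 0.397 in Chpf to 0.657 in Soga1.

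Over all 70 regions with a CTCF match, the match lay in a footprint of replicate 1 in 70 and of replicate 2 in 56, and in both in 56 (80%). In introns it lay in footprints of both libraries in 84.1% and in intergenic regions in 85.9%. Most CTCF matches in open coding exons were thus footprinted in both libraries. Another strong one lies in Epg5, an autophagy gene (5.50 and 3.80).

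AP-1, the dimer of Fos and Jun proteins, binds TGANTCA. A match lay in 96 coding exon regions (8.24%), against 15.3% of all distal shared regions, 15.96% of intronic regions, 12.8% of introns weighted to the same GC content and 4.70% of coding exons without a peak. A match is wholly coding in 55 of the 96, so in the others it lies at least partly outside coding sequence. The regions with a match were no stronger than the others, with medians of 0.953 and 0.739 against 0.968 and 0.839. The strongest lay in Rsad1, Rin2, a Ras effector gene (4.90 and 4.58), and Pparg. Next came Adgrd1, an adhesion receptor gene (4.41 and 3.64), Fry (4.14 and 2.93) and Nkx2-2, a homeobox gene (3.39 and 2.82). In Rsad1 the match is in the intron at the lower-case end of the sequence given above. In Pparg the match also lies outside coding sequence. The AP-1 match is in capitals in the following stretches, on the strand of the gene; the match is wholly coding in Rin2 and Fry and not in Adgrd1.
Rin2 (chr2:145860635-145860685, plus strand): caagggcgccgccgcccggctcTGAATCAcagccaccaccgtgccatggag
Adgrd1 (chr5:129178132-129178182, plus strand): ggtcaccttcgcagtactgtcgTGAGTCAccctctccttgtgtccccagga
Fry (chr5:150466365-150466415, plus strand): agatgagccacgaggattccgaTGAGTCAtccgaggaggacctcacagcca
Fry is the single case among the 96 in which the match lay in a footprint of both libraries (1.04%, against 3.86% in introns).

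Other motifs differed in their share. The E-box CAGCTG, bound by basic helix-loop-helix factors, lay in 303 regions (26.01%), against 21.5% of intronic regions, 24.1% of introns at the same GC content and 14.7% of coding exons without a peak. The Klf and Sp motif GGGNGGGG lay in 9.53%, against 14.1% of intronic regions, 28.2% of introns at the same GC content and 34.8% of promoter regions. CpG-rich coding exon regions held it in 9.23%, so the GC-rich sequence of open coding exons carries fewer runs of G than that of introns or promoters. The Ets motif CCGGAAG lay in 4.29%, against 1.61% in introns and 9.41% at promoters.

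The Tead motif GGAATG lay in 10.4% of open coding exons and 10.497% of coding exons without a peak, against 15.04% in introns. The Gata motif AGATAA lay in 4.03%, below both coding exons without a peak (8.95%) and introns (8.57%). Open coding exons were thus nearer to coding exons without a peak than to introns for Tead, and below both for Gata. For the Tead, Gata and Ets motifs no share at the same GC content was worked out. Median GC content was 59% in open coding exons, 49% in those without a peak and 52.5% in intronic regions.

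Few of the regions have close copies in the genome that could have shared their reads. A search of each region against the whole assembly found a second place with at least 90% identity over at least 80% of its length for 20 regions (1.72%). Of these Gm11168 had 184 copies (2.37 and 3.51), Clvs2 had 42 and Gm4884 had 10, and their values are uncertain, since how reads with several matches were placed by the authors is not stated in the labels or headers. The chloride channel regulator genes Clca3b (5.61 and 3.23), Clca3a1 (1.83 and 1.05) and Clca3a2 (1.06 and 0.871), which are neighbours and copies of one another, had 2 copies each. None of the 12 highest-ranked regions is among the 20.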

How the data were processed

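Per the labels' protocols and titles, each of the 2 libraries is 1 bladder DNase-seq sample, processed on mm10. The deposited peak lists give a signal per peak, the authors' density, whose normalization, like the aligner and the callers, was not given in the sources used here. A deposited track of false discovery rates holds p-value or q-value numbers of the authors, listed up to 0.05. Deposited footprints carry 0.01 throughout, in a unit not stated, and were used as positions. No file was pooled over libraries, per the file headers and notes.

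Per library the longer peak list was used, since its peaks outnumber those of the stricter one (87441 and 50869 peaks). Peaks overlapping by at least 1 bp were merged. A region's signal is that of its strongest peak in each library, without pseudocount, and ratios between libraries were scaled by each library's median over autosomal shared regions. Classes followed GENCODE M21 by the region centre, in the order promoter (within 1 kb of a TSS of any gene), CDS, other exon, intron and intergenic. Composition and 16 consensus motifs were read in 200 bp at the centre from GRCm38.p6. A motif counts as footprinted where its midpoint lies in a footprint. GC weighting used bins of 2 percentage points, and densities per Mb used the bases of a class beyond 1 kb of a TSS. Own promoters are the strongest shared region within 1 kb of the gene's TSSs.

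Both libraries form 1 group, so no test was made, and p-values are not given. Intervals are Wilson intervals at 95%. The regions and the 15 gene lists were chosen with earlier results of these data known. Named genes were the 12 highest and 3 lowest by mean rank of signal, the 8 genes with most regions, up to 3 regions per list, those nearest the limits, the 6 with most footprints, the 4 highest and 4 lowest ratios, and up to 6 each with a CTCF or AP-1 match; Foxa1, Krt7, Upk2 and Zfp36 were added to complete short lists after their values were seen. Some genes that the rule names are left out. Alternatives were the stricter list, equal numbers of peaks, an overlap of 50%, TSS limits of 500 and 2500 bp, a CDS share of 90%, 100 bp windows, footprints wholly in CDS and each library alone; RefSeq TSSs and GC weighting were added after seeing the data. Copies were sought with blastn 2.17.0. The other steps ran in Python 3.11.15 (pandas 2.3.3; numpy 2.4.6; scipy 1.17.1) and were tested on simulated regions and motifs.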

Additional observations from a re-analysis of the deposited data

How the results depend on the processing

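No paired analysis was possible because both libraries belong to 1 group and no groups were compared. Across the alternatives, 45 values stayed within a set limit and 40 moved beyond it, all as values with no test. The limit was the SD of the 2 libraries for the median signal and for its ratio to introns. For the number of regions it was a fixed fold change. For shares, density and GC content it was a 95% interval over regions, which covers counting error only and not the spread between replicates. The cause of the moves was not tested.

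The number of coding exon regions, 1165, became 638 with the stricter list, 757 with a TSS limit of 2500 bp and 507 with at least 90% of the region in CDS. Their share of distal regions, 2.58%, became 3.25% at 500 bp, 1.963% at 2500 bp and 1.12% at 90% CDS. The density of 48.6 per Mb became 38.8 with equal numbers of peaks, 26.6 with the stricter list, 59.3 at 500 bp, 40.5 at 2500 bp and 21.1 at 90% CDS. The median signal of 0.896 became 1.07 with equal numbers and 1.38 with the stricter list, and its ratio to introns, 0.957, became 0.798 with GC weighting.

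The share with a stricter peak in both libraries, 53.9%, became 65.1% with equal numbers and, by construction, 100% with the stricter list. The share with a footprint in both, 80.7%, became 86.2% with equal numbers, 89.3% with the stricter list, 74.5% at 500 bp, 83.2% at 2500 bp and 74.1% for footprints wholly in CDS. The median GC content of 59% became 60% with the stricter list, 61% at 500 bp, 57.5% at 2500 bp, 62% at 90% CDS and 60% in 100 bp. The AP-1 share of 8.24% became 6.58% with the stricter list, 6.35% at 500 bp, 5.33% at 90% CDS and 4.64% in 100 bp.

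With either library alone the number of regions ran from 1442 to 2598, their share from 2.70% to 2.87%, the density from 60.1 to 108 per Mb and the median signal from 0.568 to 0.719. The ratio to introns ran from 0.916 to 0.947, the stricter share from 48.3% to 49.5%, the footprint share from 76.2% to 80.9%, the GC content from 58% to 59.5% and the AP-1 share from 7.49% to 7.81%. With RefSeq TSSs as well, 1093 regions remained, and none of the other values moved beyond its limit. How far depth limits the list was not tested; the weakest region held 33 steps in replicate 1 and 27 in replicate 2, and regions below the authors' peak threshold in replicate 2 were not counted.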
